A study of Mus musculus with 12 samples.

Results

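AP-1 and immediate early genes were followed in 3 mouse pigment cell lines, without treatment and with SX-682. The set held 10 genes of the 34513 in the deposited count table, chosen by gene symbol: Fos, Fosb, Fosl1, Fosl2, Jun, Junb, Jund, Egr1, Ier2 and Ier3. RNA was sequenced from cultures of MelanA, a line labelled as nontumorigenic, and of the melanoma lines B16F0 and B16F10. Each line was given as untreated control and with SX-682, an antagonist of the chemokine receptors CXCR1 and CXCR2, so that there were 6 groups of 2 libraries and 12 libraries in all. Each line is a single established line. The dose and duration of SX-682 in the sequenced cultures are not given in the sources used here. The labels call the controls no treatment and do not say whether they received the solvent of SX-682.

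Immediate early genes are transcribed within minutes of a growth factor, cytokine or stress signal, from transcription factors already present in the cell, and their mRNAs and proteins are mostly short-lived. AP-1 is a dimeric transcription factor made of a Jun protein, which can pair with itself, and a Fos or related protein, which needs a Jun partner. The ERK branch of the MAP kinase cascade acts on Fos and Egr1 through the serum response factor SRF and its ELK cofactors, and the JNK branch acts on the Jun protein. Egr1 encodes a zinc finger transcription factor of the same early wave, Ier2 a small nuclear protein, and Ier3 a small protein linked to survival and stress signalling. In melanocytes and melanoma these genes lie downstream of BRAF, RAS and ERK signalling.

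Library totals were 48877000 to 85322100 counts with a median of 66943800, and all 10 genes were among the 18338 that passed the expression filter. Levels are given as CPM (counts scaled to library size, after TMM scaling), and changes as log2 fold changes with their standard error and a Benjamini-Hochberg adjusted p over all 18338 genes from edgeR's quasi-likelihood test, called at 0.05. A floor of 3 counts corresponds to 0.0330 to 0.0623 CPM, and covers counting error only. The labels do not say whether the 2 libraries of a group came from separate cultures, so the p-values measure the spread between these libraries, which may be technical. An exact permutation of 2 libraries against 2 cannot give a two-sided p below 0.333, so the tests borrow their estimate of variation from all genes and from the 6 groups together. In such bulk RNA, fewer cells of a type and less RNA per cell cannot be told apart.

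Without treatment, the 3 lines held these genes at very different levels. The Fos genes, Jun, Junb, Egr1 and Ier2 were lower in both B16 lines than in MelanA, and Jund and Ier3 were higher. Egr1 and Fosl1 differed by the largest estimated folds, with intervals that overlapped in both lines. All 10 genes passed the test in B16F0 against MelanA, 2 higher and 8 lower, where 75.9% of all genes tested were called, 35.3% higher and 40.6% lower. The counts were the same in B16F10 against MelanA, where 74.2% of all genes were called, 33.4% higher and 40.8% lower. The median absolute log2 difference of the 10 genes was 1.39 in B16F0 and 1.26 in B16F10, beside 0.71 and 0.68 over all genes. All 10 genes had non-overlapping libraries in each comparison, as had 87.4% of all genes in B16F0 against MelanA and 85.6% in B16F10 against MelanA. Both comparisons use the MelanA controls, and the changes with SX-682 given further on use these same control libraries.

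Egr1 was measured at 243.3 and 254.5 CPM in the MelanA controls, at 3.62 and 3.58 CPM in the B16F0 controls and at 16.1 and 17.5 CPM in the B16F10 controls. These are 21010 and 23119 counts in MelanA against 271 and 241 in B16F0, so that the low level in B16F0 was still well above the floor. Egr1 was 69.1-fold lower in B16F0 than in MelanA (log2 fold change -6.11, SE 0.054, adjusted p = 3.0e-36) and 14.8-fold lower in B16F10 (log2 fold change -3.89, SE 0.043, adjusted p = 1.0e-33). Between the 2 melanoma lines, Egr1 was 4.68-fold higher in B16F10 (log2 fold change 2.22, SE 0.074, adjusted p = 2.4e-21).

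Fos, the founding member of its family, stood at 40.2 and 40.5 CPM in the MelanA controls, 4.22 and 3.51 CPM in the B16F0 controls and 10.1 and 11.7 CPM in the B16F10 controls. It was 10.4-fold lower in B16F0 than in MelanA and 3.69-fold lower in B16F10. Fosb and Fosl1, the latter encoding Fra-1, were scarce outside MelanA. Fosb had 475 and 498 counts in the MelanA controls against 27 and 30 in B16F0 and 56 and 34 in B16F10. Fosl1 had 358 and 319 counts in the MelanA controls, 4 and 7 in B16F0 and 17 in each B16F10 control. The fitted log2 differences from MelanA were -3.77 (95% interval -4.24 to -3.29) and -2.92 (-3.36 to -2.48) for Fosb, and -5.59 (-6.41 to -4.78) and -3.80 (-4.47 to -3.12) for Fosl1, in B16F0 and B16F10 respectively. Fosl2, which encodes Fra-2, varied least in the Fos family, with 101.7 and 99.0 CPM in the MelanA controls, 56.5 and 56.0 in B16F0 and 82.2 and 78.4 in B16F10.

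Jun and Junb were also highest in the MelanA controls. Jun was at 193.9 and 195.9 CPM there, at 92.6 and 92.8 CPM in the B16F0 controls and at 115.6 and 113.7 CPM in the B16F10 controls. Junb, whose product often restrains Jun, was at 127.9 and 127.0 CPM in the MelanA controls, 42.2 and 43.3 CPM in B16F0 and 69.0 and 71.6 CPM in B16F10. Jund, which is expressed more steadily than the other Jun genes in most cells, showed the opposite order, with 49.1 and 50.5 CPM in the MelanA controls, 76.1 and 80.2 CPM in B16F0 and 55.2 and 57.6 CPM in B16F10. For Jund in B16F10 the difference from MelanA was small (log2 fold change 0.18, SE 0.051, adjusted p = 0.0023), and it did not pass in DESeq2. Ier2 was at 109.0 and 115.1 CPM in the MelanA controls and at 48.8 CPM or less in all 4 melanoma controls. Ier3 was lowest in the MelanA controls, at 66.4 and 70.9 CPM, with 138.8 and 143.1 CPM in B16F0 and 103.5 and 108.3 CPM in B16F10.

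**Figure D1:**
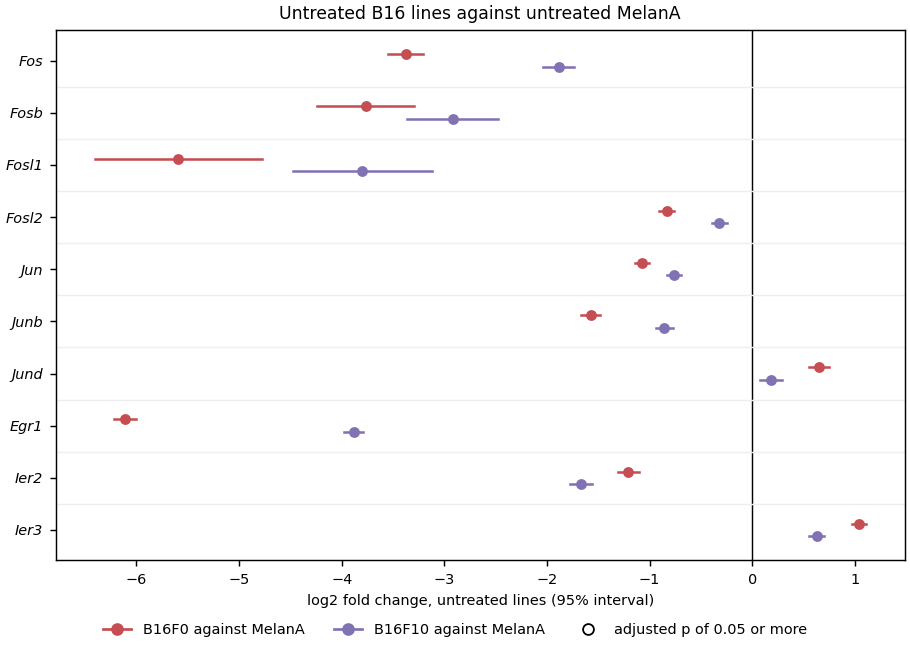
Log2 fold change of each gene in untreated B16F0 (red) and untreated B16F10 (purple) against untreated MelanA, 2 libraries per group. Points are estimates from edgeR and lines their 95% intervals. Egr1 has the point farthest from 0 in both lines, at -6.11 and -3.89, within the interval of Fosl1, and only Jund and Ier3 lie to the right of 0.

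The level in untreated B16F10 was between those in B16F0 and MelanA for 9 of the genes. The exception was Ier2, which was lowest in B16F10, at 35.5 and 34.9 CPM against 48.8 and 48.3 CPM in B16F0. All 10 genes differed between the 2 melanoma lines, 7 higher and 3 lower in B16F10, where 62.0% of all genes were called, 30.8% higher and 31.2% lower, and 77.0% had libraries that did not overlap. For 2 of them the call rested on single libraries. The log2 difference of Fosb of 0.85 (adjusted p = 0.017) became 0.71 without B16F0 control replicate 1 and 0.41 without B16F10 control replicate 1, and neither passed. The log2 difference of Fosl1 of 1.79 (adjusted p = 0.0094) became 1.38 without B16F0 control replicate 1 and did not pass.

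SX-682 moved the genes in different directions in the different lines. Junb rose in all 3. Egr1, Ier2 and Ier3 rose in MelanA and fell in both melanoma lines, while Jun and Jund fell in MelanA and rose in both melanoma lines. Fos rose in MelanA and B16F0 and fell in B16F10.

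**Figure D2:**
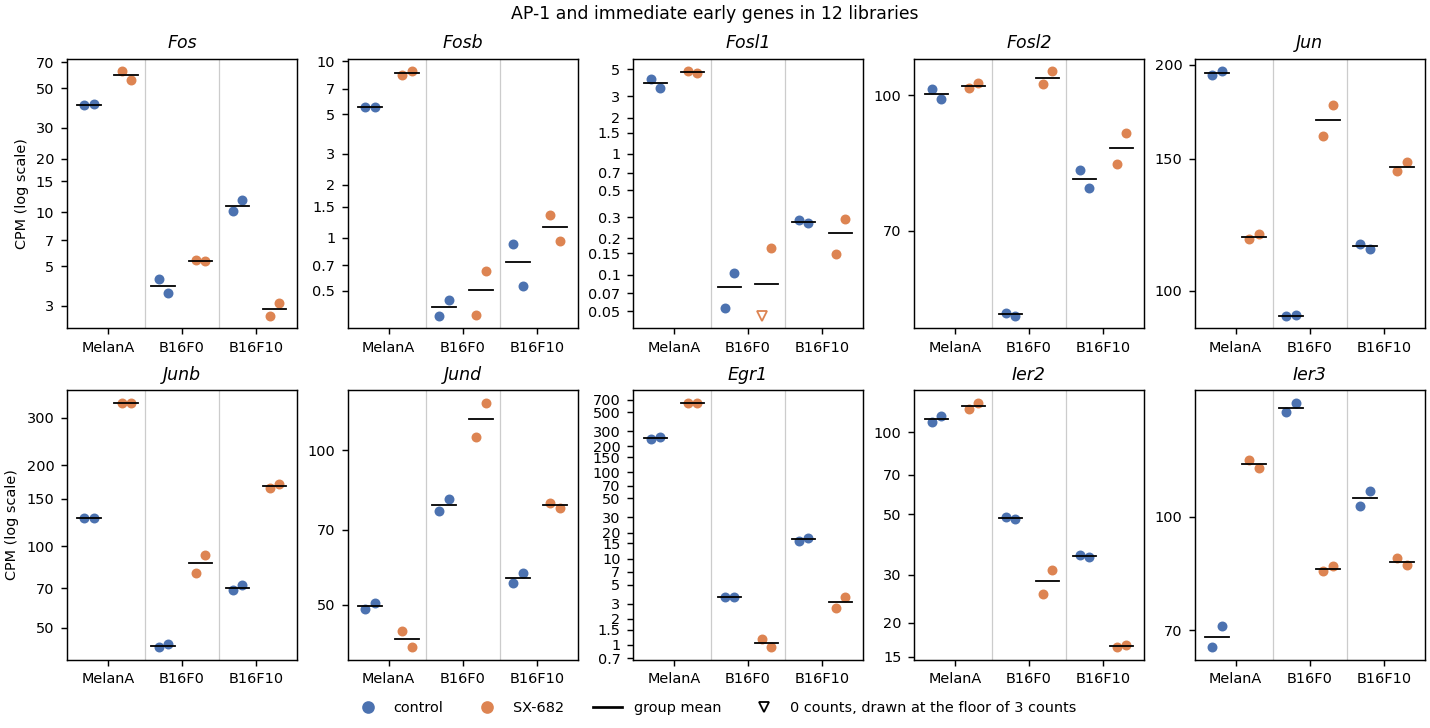
CPM of each gene in the 12 libraries on log axes, controls in blue and SX-682 in orange, with black lines at the group means; the open triangle is the Fosl1 library with 0 counts, drawn at its floor of 3 counts. Egr1 lies at 243.3 CPM or more in MelanA and at 17.5 CPM or less in the B16 libraries, and its SX-682 points lie above the controls in MelanA and below them in both B16 lines.

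In MelanA, 6 genes were called higher and 2 lower with SX-682, where 48.2% of all genes tested were called, 23.4% higher and 24.7% lower. In B16F0, 5 were called higher and 3 lower, beside 50.1% of all genes, 25.1% higher and 25.0% lower. In B16F10, 5 were called higher and 4 lower, beside 50.8% of all genes, 25.5% higher and 25.3% lower. The median absolute log2 change of the 10 genes was 0.59 in MelanA, 0.76 in B16F0 and 0.57 in B16F10, beside 0.31, 0.32 and 0.36 over all genes. Control and SX-682 libraries did not overlap for 10, 8 and 9 of the genes in the 3 lines, a separation that 72.7%, 70.4% and 69.4% of all genes showed as well. Of all genes tested, 260 (1.42%) were called higher in MelanA and lower in both melanoma lines, and 227 (1.24%) lower in MelanA and higher in both, and 3 of the 10 genes had the former pattern and 2 the latter. Counting Fos and Junb too, 7 of the 10 genes were called in all 3 lines, beside 28.0% of all genes. For 6 of these the calls were not all in the same direction, beside 4.93% of all genes. These counts include Ier2, whose call in MelanA did not pass in DESeq2. The members were chosen with earlier results of these data known, so these shares are given as a description.

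The differences between the responses of the lines were tested as well. In B16F0 against MelanA the response was called higher for 3 genes and lower for 4, beside 34.4% of all genes, 17.7% higher and 16.6% lower. In B16F10 against MelanA it was called higher for 2 and lower for 5, beside 33.8% of all genes, 17.8% higher and 16% lower. In B16F10 against B16F0 it was also called higher for 2 and lower for 5, beside 30.3%, 15.3% higher and 14.9% lower.

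**Figure D3:**
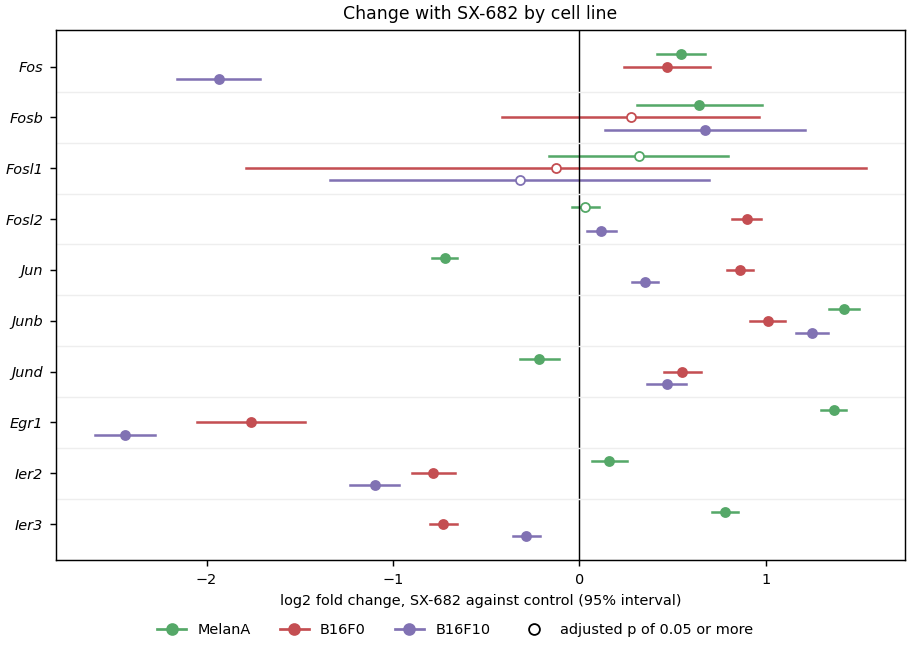
Log2 fold change with SX-682 against control for each gene in MelanA (green), B16F0 (red) and B16F10 (purple), from 2 against 2 libraries per line. Points are estimates from edgeR, lines are 95% intervals, and open points have an adjusted p of 0.05 or more. Egr1 spans from 1.36 in MelanA to -2.44 in B16F10, whereas Junb lies between 1.01 and 1.42 in all lines.

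The bases just upstream of 4 genes are shown, each standing for a different response: Fos, which fell in B16F10 and rose in the other lines, Jun, which fell in MelanA and rose in the melanoma lines, Junb, which rose in all lines, and Ier3, which rose in MelanA and fell in the melanoma lines. The 100 bases end just before the outermost start given by RefSeq or GENCODE, on GRCm38.p6, and are credited to RefSeq; 7 of the 10 genes had an entry, and Fosl1, Egr1 and Ier2 did not. Capitals mark TGACG or TGACNTCA (a short and a long form of the site bound by CREB and ATF proteins), GGGCGG (the GC box bound by SP1-type factors, also as CCGCCC on the other strand) and TATAAA (the TATA box).
Fos, chr12:85473790-85473889, plus strand: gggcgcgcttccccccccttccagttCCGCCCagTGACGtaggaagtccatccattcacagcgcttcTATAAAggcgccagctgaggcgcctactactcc
Jun, chr4:95052223-95052322, minus strand: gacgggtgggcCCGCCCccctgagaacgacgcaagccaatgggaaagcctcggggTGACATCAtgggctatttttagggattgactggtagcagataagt
Junb, chr8:84978749-84978848, minus strand: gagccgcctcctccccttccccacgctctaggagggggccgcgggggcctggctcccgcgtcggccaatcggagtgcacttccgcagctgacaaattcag
Ier3, chr17:35821584-35821683, plus strand: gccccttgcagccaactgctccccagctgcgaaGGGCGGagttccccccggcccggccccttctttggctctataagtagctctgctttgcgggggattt

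The Fos window held TATAAA at bases -33 to -28 and TGACG at bases -66 to -62, counted back from the start. In Jun, TGACATCA lay at bases -45 to -38, a site read by Jun and ATF2 dimers in the textbook account of this promoter. The 100 bases shown of Junb held none of the letters searched, and those of Ier3 held 1 GC box. Over the 250 bases upstream of the 7 genes, on both strands, TGACG was found in 3, TGACNTCA in 1, GGGCGG in 5, TATAAA in 1, the EGR site GCGNGGGCG in 2 (Fosb and Fosl2, where it overlaps a GC box), and the AP-1 site TGANTCA and the CArG box in 0. Of 32851 RefSeq promoters of the same length, 17.8%, 7.5%, 32.7%, 12.4%, 4.7%, 6.7% and 1.5% held these letters, in the same order. These matches describe the letters alone. Sites beyond the 250 bases were not searched, and Egr1 had no entry. The RefSeq starts used for Fosl2 and Jund lie 671 and 1210 bases from the GENCODE starts.

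Egr1 showed the widest divergence. In MelanA it went from 243.3 and 254.5 CPM in the controls to 637.7 and 643.8 CPM with SX-682. In B16F0 it went from 3.62 and 3.58 CPM to 1.15 and 0.935 CPM, which are 76 and 45 counts. In B16F10 it went from 16.1 and 17.5 CPM to 2.69 and 3.54 CPM. In no line did control and SX-682 libraries overlap. Egr1 rose 2.57-fold in MelanA (log2 fold change 1.36, SE 0.033, adjusted p = 6.6e-24). It was 3.39-fold lower in B16F0 (log2 fold change -1.76, SE 0.14, adjusted p = 8.1e-12) and 5.42-fold lower in B16F10 (log2 fold change -2.44, SE 0.080, adjusted p = 5.2e-21). With SX-682, mean Egr1 in MelanA was 641 CPM and in B16F0 1.04 CPM. The response differed from that in MelanA by -3.13 on the log2 scale in B16F0 (SE 0.14, adjusted p = 4.9e-17) and by -3.80 in B16F10 (SE 0.084, adjusted p = 3.0e-24). The difference between the melanoma lines was smaller (log2 difference -0.68, SE 0.18, adjusted p = 0.0052) and became -0.50, which did not pass, without B16F0 SX-682 replicate 1.

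Ier2 and Ier3 had the same signs as Egr1 with smaller changes. Ier3 went from 66.4 and 70.9 CPM to 119.3 and 116.5 CPM in MelanA, from 138.8 and 143.1 CPM to 84.4 and 85.6 CPM in B16F0, and from 103.5 and 108.3 CPM to 87.8 and 85.9 CPM in B16F10. The MelanA controls were thus the lowest and the B16F0 controls the highest of the 6 groups, and with SX-682 both melanoma lines were below MelanA. Its log2 changes were 0.78 (SE 0.034), -0.73 (SE 0.035) and -0.29 (SE 0.035), and the response differed from that in MelanA by -1.51 in B16F0 (SE 0.049, adjusted p = 3.1e-20) and -1.07 in B16F10 (SE 0.049, adjusted p = 1.1e-16).

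Ier2 went from 48.8 and 48.3 CPM to 25.6 and 31.2 CPM in B16F0 and from 35.5 and 34.9 CPM to 16.3 and 16.6 CPM in B16F10. In MelanA it changed little, from 109.0 and 115.1 CPM to 121.6 and 128.6 CPM. The falls in the melanoma lines were 1.72-fold (adjusted p = 7.1e-13) and 2.14-fold (adjusted p = 3.3e-15). The rise in MelanA had a log2 fold change of 0.16 (SE 0.046, adjusted p = 0.0043), which did not pass in DESeq2 (0.17) or without MelanA SX-682 replicate 2 (0.13). The response differed from that in MelanA by -0.94 in B16F0 (adjusted p = 1.1e-11) and -1.26 in B16F10 (adjusted p = 8.9e-14). Between B16F10 and B16F0 it differed by -0.31 (adjusted p = 0.0050), and by -0.18 without B16F0 SX-682 replicate 2, which did not pass.

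Within the Fos family, Fos itself separated the 2 melanoma lines. Fos went from 40.2 and 40.5 CPM to 62.1 and 55.6 CPM with SX-682 in MelanA. It went from 4.22 and 3.51 CPM to 5.37 and 5.36 CPM in B16F0. In B16F10 it went from 10.1 and 11.7 CPM to 2.62 and 3.09 CPM. The order of the melanoma lines was therefore inverted, with B16F10 above B16F0 in the controls and below it with SX-682. Fos rose 1.46-fold in MelanA (log2 fold change 0.55, SE 0.063, adjusted p = 1.4e-08) and 1.38-fold in B16F0 (log2 fold change 0.47, SE 0.11, adjusted p = 0.00078), and was 3.82-fold lower in B16F10 (log2 fold change -1.94, SE 0.11, adjusted p = 1.7e-15). The response in B16F10 differed by -2.48 from that in MelanA (SE 0.12, adjusted p = 8.5e-16) and by -2.40 from that in B16F0 (SE 0.16, adjusted p = 6.9e-13). No difference between B16F0 and MelanA was detected (log2 difference -0.08, 95% interval -0.34 to 0.19).

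Fosl2 rose mainly in B16F0, from 56.5 and 56.0 CPM to 103.0 and 106.6 CPM. This brought it to the level of MelanA, where it was at 101.7 and 99.0 CPM in the controls and 101.9 and 103.3 CPM with SX-682. In B16F10 it went from 82.2 and 78.4 CPM to 83.4 and 90.6 CPM. The rise in B16F0 was 1.86-fold (log2 fold change 0.90, SE 0.038, adjusted p = 4.2e-18), and the response there exceeded that in MelanA by 0.87 (SE 0.052, adjusted p = 5.8e-14) and that in B16F10 by 0.78. In B16F10 the log2 change of 0.12 (SE 0.038, adjusted p = 0.011) did not pass without B16F10 control replicate 2 (0.08) or without B16F10 SX-682 replicate 2 (0.06). In MelanA no change was detected (log2 fold change 0.03, 95% interval -0.04 to 0.10).

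Fosb rose in MelanA from 5.50 and 5.48 CPM to 8.36 and 8.78 CPM (log2 fold change 0.64, SE 0.16, adjusted p = 0.0015). In the melanoma lines its counts were between 24 and 82, and the interval of the change in B16F0 was -0.41 to 0.97. In B16F10, counts of 56 and 34 in the controls and 82 and 56 with SX-682 gave a log2 change of 0.67 (SE 0.26, adjusted p = 0.032). This call did not pass in a fit of the B16F10 libraries alone, without B16F10 SX-682 replicate 1 (0.39) or without B16F10 control replicate 2 (0.31), and the value was 1.12 without B16F10 control replicate 1. No difference of the Fosb response between lines was detected, with intervals of -1.14 to 0.40, -0.58 to 0.64 and -0.48 to 1.27 for B16F0 against MelanA, B16F10 against MelanA and B16F10 against B16F0.

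The change of Fosl1 with SX-682 did not pass the test in any line. In MelanA it had 358 and 319 counts in the controls and 344 and 354 with SX-682, which is 4.15 and 3.51 CPM against 4.82 and 4.72 CPM (log2 fold change 0.32, 95% interval -0.16 to 0.80). The libraries did not overlap, and the change passed in a fit of the MelanA libraries alone (0.32). In B16F0 the SX-682 libraries had 0 and 8 counts, beside 4 and 7 in the controls, and the interval of the log2 change was -1.79 to 1.54. Without B16F0 SX-682 replicate 2, the library with 0 counts stood alone, and the fitted change of -5.48 passed the test, which rests on the prior count and is no bound. In B16F10 there were 17 counts in each control and 9 and 17 with SX-682 (95% interval -1.34 to 0.69).

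Among the Jun genes, Junb had the most uniform response. It went from 127.9 and 127.0 CPM to 339.2 and 341.5 CPM in MelanA, from 42.2 and 43.3 CPM to 79.7 and 93.1 CPM in B16F0, and from 69.0 and 71.6 CPM to 164.1 and 170.3 CPM in B16F10. The SX-682 libraries lay above the controls in every line, and those of B16F10 also above the MelanA controls. The rises were 2.67-fold (log2 fold change 1.42, SE 0.039, adjusted p = 1.8e-22), 2.01-fold (1.01, SE 0.046, adjusted p = 1.7e-17) and 2.38-fold (1.25, SE 0.042, adjusted p = 1.2e-20). A rise in all 3 lines was called for 11.3% of all genes, and Junb was the only one of these 10 with it. The rise in B16F0 was smaller than in MelanA by 0.41 (SE 0.060, adjusted p = 2.3e-06). The rise in B16F10 was 0.17 below that in MelanA (adjusted p = 0.021), which did not pass in DESeq2 (-0.18), without B16F10 SX-682 replicate 1 (-0.16) or without B16F10 control replicate 2 (-0.16). It was 0.24 above that in B16F0 (adjusted p = 0.0034), which did not pass in DESeq2 (0.21) or without B16F0 SX-682 replicate 1 (0.12).

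Jun moved oppositely in MelanA and the melanoma lines. In MelanA it went from 193.9 and 195.9 CPM to 117.2 and 118.9 CPM. It went from 92.6 and 92.8 CPM to 160.8 and 177.0 CPM in B16F0 and from 115.6 and 113.7 CPM to 144.2 and 148.4 CPM in B16F10. MelanA therefore had the most Jun without treatment and the least of the 3 lines with SX-682. Jun was 1.65-fold lower with SX-682 in MelanA (log2 fold change -0.72, SE 0.033, adjusted p = 2.6e-17) and rose 1.82-fold in B16F0 (0.86, SE 0.034, adjusted p = 8.6e-19) and 1.28-fold in B16F10 (0.35, SE 0.034, adjusted p = 4.0e-10). The response exceeded that in MelanA by 1.59 in B16F0 (SE 0.048, adjusted p = 7.2e-21) and by 1.07 in B16F10 (SE 0.047, adjusted p = 4.0e-17), and B16F10 was 0.51 below B16F0 (adjusted p = 1.5e-09).

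Jund followed Jun in sign. It went from 49.1 and 50.5 CPM to 44.5 and 41.3 CPM in MelanA, from 76.1 and 80.2 CPM to 106.1 and 123.6 CPM in B16F0, and from 55.2 and 57.6 CPM to 79.0 and 77.2 CPM in B16F10. The log2 changes were -0.21 (SE 0.052, adjusted p = 0.00086), 0.55 (SE 0.048, adjusted p = 5.5e-11) and 0.47 (SE 0.051, adjusted p = 3.7e-09). The response exceeded that in MelanA by 0.77 in B16F0 and 0.68 in B16F10, and the interval of the difference between the melanoma lines was -0.23 to 0.06, although without B16F0 SX-682 replicate 1 that difference was -0.20 and passed.

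To compare levels between genes, CPM were divided by the exonic length in kilobases. On this scale Fos made up 56.6% of the Fos family in the MelanA controls, and Fosl2 76.9% and 62.9% in the B16F0 and B16F10 controls. With SX-682 the share of Fos was 63.6% in MelanA, 17.3% in B16F0 (21.7% in the controls) and 11.6% in B16F10 (35.2% in the controls). Fosl2 then held 85.6% of the family in B16F10. The summed level of the family was 30.3 ± 0.34 CPM per kilobase (SD, n = 2) in the MelanA controls and 39.3 ± 1.83 with SX-682, 7.55 ± 0.22 and 13.2 ± 0.34 in B16F0, and 13.2 ± 0.14 and 10.5 ± 0.67 in B16F10.

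In the Jun family, the leading gene changed with SX-682 in MelanA, where Jun held 41.8% and Junb 37.9% in the controls, and Junb 70.2% and Jun 17.6% with SX-682. Jund led in B16F0 in both conditions, at 49.6% and 43.2%. In B16F10 the controls held 35.8% Jun, 33.7% Jund and 30.5% Junb, and with SX-682 Junb led at 43.9%. The summed Jun family level was 146 ± 0.75 CPM per kilobase in the MelanA controls and 211 ± 0.25 with SX-682, 94.5 ± 2.15 and 159 ± 15.1 in B16F0, and 100.4 ± 1.38 and 165 ± 2.07 in B16F10. The ratio of the summed Fos to the summed Jun family was 0.209 and 0.204 in the MelanA controls and 0.193 and 0.181 with SX-682. In B16F10 it went from 0.132 and 0.131 to 0.0611 and 0.0658. In B16F0, the controls at 0.0829 and 0.0770 and the SX-682 libraries at 0.0873 and 0.0792 overlapped.

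**Figure D4:**
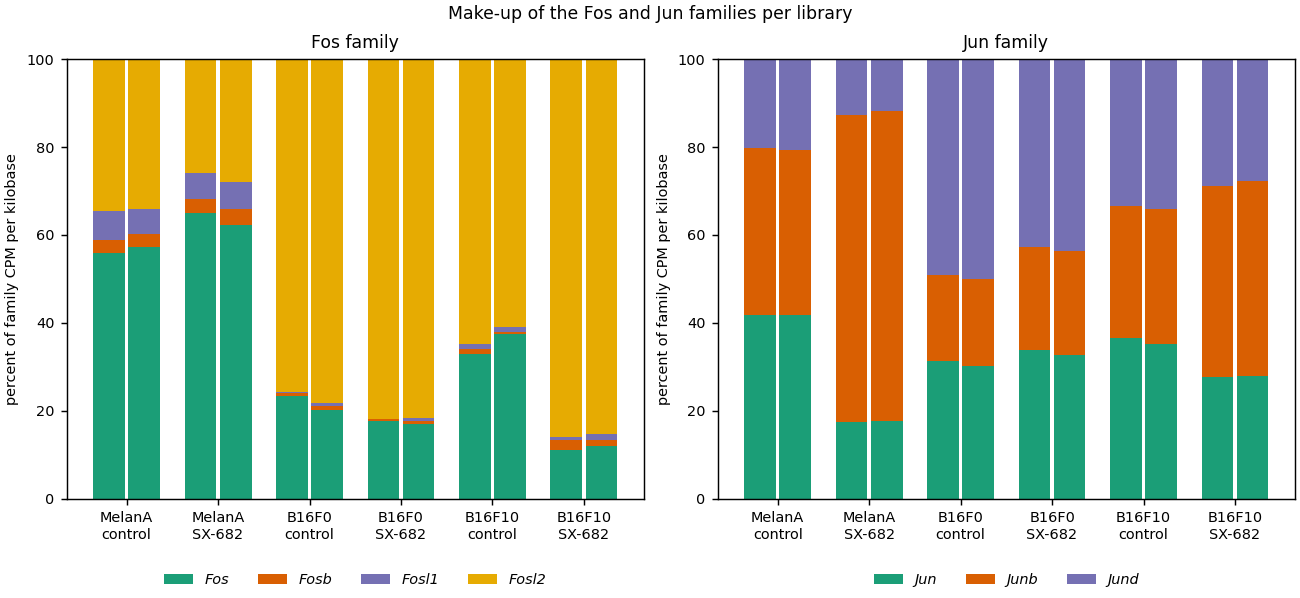
Percent of the summed CPM per kilobase held by each gene of the Fos family (left) and Jun family (right), with 1 bar per library and 2 libraries per group. Fos holds at least 56.0% of its family in the MelanA libraries and Fosl2 at least 61.0% in every B16 library, and Junb widens from 37.9% to 70.2% of the Jun family in MelanA with SX-682.

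When the 6 groups were ordered by level, MelanA with SX-682 was highest for Fos, Fosb, Fosl1, Junb, Egr1 and Ier2. B16F0 with SX-682 was highest for Fosl2 and Jund, the MelanA controls for Jun and the B16F0 controls for Ier3. Neighbouring groups overlapped for Fosl2 in B16F0 and MelanA with SX-682, for Jund in the B16F0 controls and B16F10 with SX-682, for Fosb in the B16F10 controls, B16F0 with SX-682 and B16F0 controls, and for Fosl1 in all 4 melanoma groups. All other neighbours were separated.

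Gene models could mix or lose reads for a few members. The strand setting of the counting is not given in the sources used here. Whether reads in shared bases were lost was not tested, and levels per kilobase use the full exonic length. On GRCm38, Fosl1 (chr19:5447547-5455946, plus strand) shares 57.2% of its exonic bases with Ccdc85b on the other strand. Ccdc85b had 1359 to 3678 counts where Fosl1 had 0 to 358. In B16F0 SX-682 replicate 1, Fosl1 had 0 counts beside 1856 of Ccdc85b, so none of those reads was counted for Fosl1. Jund (chr8:70698949-70700616, plus strand, 1 exon) shares 52.6% with Gm11175, which is not among the genes with counts. Junb (chr8:84974484-84978718, minus strand, 2 exons) shares 7.5% with Prdx2, which had 10790 to 23143 counts and log2 changes with SX-682 of -0.12, -0.16 and -0.21 in MelanA, B16F0 and B16F10, opposite in sign to those of Junb. Jun (chr4:95049034-95052222, minus strand, 1 exon) shares 7.3% with Junos, which had 17 to 112 counts against 6239 or more for Jun. In the untreated lines against MelanA, Junos had log2 differences of -0.92 in B16F0 and -1.70 in B16F10, the same sign as Jun. Ccdc85b had -0.56 in B16F0, the same sign as Fosl1, and 0.27 in B16F10, the opposite sign. Prdx2 had 0.78 and 1.16, opposite in sign to Junb. The part of these overlapping genes in the differences was not tested. The exons of Fos (chr12:85473890-85477273, 4 exons), Fosb (chr7:19302696-19310051, 5 exons), Fosl2 (chr5:32135801-32157842, 4 exons), Egr1 (3 exons), Ier2 (chr8:84661331-84662854, 1 exon) and Ier3 (chr17:35821684-35822923, 2 exons) overlap no other gene in GENCODE M21. The 10 genes are compact, with a median span of 3809.5 bases, against 24521 bases for 13357 protein-coding genes with a mean count of at least 10.

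Genes around AP-1 were taken from lists, whose counts stand beside the shares of all genes called with SX-682, 48.2% in MelanA, 50.1% in B16F0 and 50.8% in B16F10. Of 12 related bZIP genes that can pair with or compete with AP-1, 8 rose and 1 fell with SX-682 in MelanA, 7 rose and 2 fell in B16F0, and 5 rose and 4 fell in B16F10. Their median log2 change was 0.31, 0.50 and 0.02, beside 0 over all genes. Atf3, a stress-induced ATF gene, rose in every line, from a mean of 41.2 to 135 CPM in MelanA (log2 fold change 1.72), 24 to 72.9 CPM in B16F0 (1.60) and 29.5 to 124 CPM in B16F10 (2.08). Jdp2, a repressor that dimerises with Jun proteins, rose by 1.16 on the log2 scale in B16F10, and by 0.28 and 0.65 in MelanA and B16F0. Maf fell by 0.85, 0.38 and 0.94 in MelanA, B16F0 and B16F10. Without treatment, 8 of the 12 were lower and 3 higher in each melanoma line than in MelanA, where 40.6% and 40.8% of all genes were lower in B16F0 and B16F10.

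Of 24 other immediate early genes, 12 rose and 6 fell in MelanA, 10 rose and 8 fell in B16F0, and 8 rose and 10 fell in B16F10, which is 18 called genes in each line, beside 48.2%, 50.1% and 50.8% of all genes. Egr2, a relative of Egr1, had 916 and 1118 as its lowest and highest counts in the MelanA controls and 1983 and 2310 with SX-682 (log2 fold change 1.35). In B16F10 its counts went from 13 and 28 to 4 and 6 (log2 fold change -1.95, adjusted p = 0.0016), and at most 5 in B16F0. Nr4a3, an orphan nuclear receptor gene, rose by 2.29 in MelanA and fell by 0.15 in B16F0 and 0.75 in B16F10. Gadd45b, a stress response gene, rose in every line, by 1.21, 1.49 and 2.02 in MelanA, B16F0 and B16F10. Ccn1 and Ccn2 encode matricellular proteins. Ccn1 fell by 0.13 in MelanA and rose by 2.74 in B16F0 and 0.84 in B16F10, and Ccn2 fell by 1.63 in MelanA and 0.81 in B16F10 and rose by 0.94 in B16F0. Klf2 fell in every line, by 0.32, 1.93 and 0.79. Without treatment, 19 of the 24 were lower in each melanoma line than in MelanA, and 4 and 3 were higher in B16F0 and B16F10, beside 40.6% and 40.8% of all genes lower and 35.3% and 33.4% higher. Klf6 went the other way, with 74 and 91 counts in the MelanA controls and 13030 or more in each melanoma control (log2 fold changes 7.81 and 7.86).

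Of 15 genes for MAP kinases and the kinases that activate them, 2 rose and 5 fell in MelanA, 3 rose and 6 fell in B16F0, and 4 rose and 6 fell in B16F10, beside 48.2%, 50.1% and 50.8% of all genes called. Map2k3, which activates p38, fell in every line, by 0.34, 0.52 and 0.92, and Map2k1, which activates ERK, rose in every line, by 0.38, 0.17 and 0.12. Mapk10, the JNK3 gene, had 458 to 716 counts in MelanA libraries and 0 in all 8 melanoma libraries. Of 11 dual specificity phosphatases, which switch MAP kinases off and are often induced by them, 5 rose and 3 fell in MelanA, 8 rose and 3 fell in B16F0, and 4 rose and 6 fell in B16F10. Dusp6, which acts on ERK, went from a mean of 265 to 433 CPM in MelanA (log2 fold change 0.71), from 84.9 to 62.9 CPM in B16F0 (-0.43) and from 128 to 70.5 CPM in B16F10 (-0.86), the same signs as Egr1. Dusp4 fell by 0.95 in B16F10 but rose by 0.61 and 0.47 in MelanA and B16F0.

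Srf and its cofactors are 6 genes, with 1 risen and 3 fallen in MelanA, 3 and 3 in B16F0, and 2 and 3 in B16F10. Srf itself fell by 0.59 in MelanA and rose by 0.49 in B16F0 and 0.16 in B16F10. Of 5 genes for ubiquitin ligases and other regulators of Jun and Fos proteins, 2 rose and 2 fell in MelanA, 2 rose and 3 fell in B16F0, and 2 rose and 1 fell in B16F10. Det1 rose in every line, by 0.49, 0.76 and 0.91.

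Of 20 genes widely described as AP-1 targets, 16 passed the expression filter. With SX-682, 9 rose and 2 fell in MelanA, 7 rose and 4 fell in B16F0, and 4 rose and 5 fell in B16F10. Hmox1, the heme oxygenase gene, rose in all lines, by 1.13, 1.04 and 1.21. Ccnd1, the cyclin D1 gene, fell in all lines, by 0.56, 0.79 and 1.11. Without treatment, 12 of the 16 were lower and 4 higher in B16F0 than in MelanA, and 11 were lower and 5 higher in B16F10, beside 40.6% and 40.8% of all genes lower and 35.3% and 33.4% higher. Il11, a cytokine gene, was lower in B16F0 and B16F10 by 7.56 and 7.79 on the log2 scale. Plau, the urokinase gene, was higher by 7.55 and 3.27.

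Markers of the labelled cell type were present in every line, but unequally. The 7 melanocyte markers summed to 1344 to 1374 CPM in the MelanA controls and 1346 to 1355 with SX-682, to 18580 to 18664 CPM in the B16F0 controls and 15770 to 15958 with SX-682, and in B16F10 to 24442 to 24471 CPM without and 14947 to 15188 CPM with SX-682. Of the 7 markers, 2 were called higher and 4 lower with SX-682 in MelanA, and all 7 lower in B16F0 and in B16F10. Of all genes, 24.7%, 25.0% and 25.3% were called lower in MelanA, B16F0 and B16F10, and 23.4% higher in MelanA. Mean Mitf went from 102 to 79.3 CPM in MelanA, from 367 to 84.6 CPM in B16F0 and from 420 to 190 CPM in B16F10. In the MelanA controls Sox10 averaged 670 CPM, Dct 355, Mlana 116, Tyrp1 107, Mitf 102, Pmel 8.11 and Tyr only 0.826 CPM. Without treatment, Sox10 was lower and the other 6 markers higher in each melanoma line than in MelanA. Of all genes, 35.3% and 33.4% were higher in B16F0 and B16F10. Of 6 fibroblast markers the sum was 114 to 115 CPM in the MelanA controls, 93.5 to 94.8 with SX-682, and at most 16.8 CPM in the melanoma libraries. In the MelanA controls this was mostly Col3a1 and Col1a1, with means of 53.9 and 46.4 CPM. Without treatment, 4 of the 6 were called lower and 2 higher in B16F0 than in MelanA, and 5 lower and 1 higher in B16F10. Of all genes, 40.6% and 40.8% were lower in these comparisons and 35.3% and 33.4% higher. Mean Col1a2 was 0.764 CPM in the MelanA controls, 2.36 in the B16F0 controls and 5.14 in the B16F10 controls. Macrophage and leukocyte markers, 5 of 6 in the table, summed to 25.1 to 25.3 CPM in the MelanA controls and 50.9 to 52.2 with SX-682, 10.3 to 12.1 and 14.2 to 16.2 in B16F0, and 26.0 to 27.0 and 24.6 to 25.4 in B16F10. In MelanA this was mostly Cd68, with a mean of 44.6 CPM with SX-682. Lyz2 had 329 to 642 counts in the MelanA libraries and at most 32 in the melanoma libraries. Csf1r had 148 to 184 counts in the MelanA libraries and at most 8 in the melanoma libraries. Ptprc, the pan-leukocyte gene, had at most 22 counts in any library and Itgam at most 4. Keratinocyte and endothelial markers summed to at most 6.02 and 2.43 CPM in any library. The 6 heat shock genes summed to 2022 to 2053 CPM in the MelanA controls and 1804 to 1811 with SX-682, 2816 to 2833 and 1757 to 1776 in B16F0, and 2939 to 2942 and 1686 to 1703 in B16F10. These sums were mostly the constitutive Hspa8, which fell by 0.20, 0.72 and 0.89 on the log2 scale. Of the 6 genes, 4 rose and 2 fell in MelanA. In B16F0 2 rose and 3 fell, and in B16F10 2 rose and 2 fell. Of all genes, 48.2%, 50.1% and 50.8% were called with SX-682 in MelanA, B16F0 and B16F10. The median log2 change of the 6 heat shock genes was 1.11, -0.65 and 0.79, beside 0 over all genes. The inducible Hspa1b, which has the near-identical copy Hspa1a, rose in every line, from a mean of 9.41 to 39.9 CPM, 9.60 to 22.7 CPM and 6.71 to 59.7 CPM. The part of these in the changes of AP-1 and immediate early genes was not tested.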

How the data were processed

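RNA was extracted with a column kit from cultures of MelanA, B16F0 and B16F10 cells and sequenced in 12 libraries, and the submitters' processing notes name cutadapt, STAR, DESeq2 and the mm10 build. The authors deposited whole-number read counts per gene without normalization, so these counts were used as given; the counting program and its strand setting are not given in the sources used here. Groups came from the sample labels. The members and lists were chosen with earlier results of these data known. R 4.3.3 and edgeR 4.0.16 were used, with TMM scaling, edgeR's expression filter (18338 of 34513 genes), all 12 libraries in a single quasi-likelihood fit, a prior count of 0.125, adjustment by Benjamini-Hochberg and calls at an adjusted p of 0.05. The residual degrees of freedom were 6 and the prior degrees of freedom 21.9. Differences of responses were tested as interaction contrasts. Standard errors came from the F statistic. The 10 genes were all named. From each list the 2 largest called changes per comparison with a mean log2 CPM of at least 1 could be named. Other lines' values of a named gene were added. The melanocyte markers, Col1a1, Col1a2, Col3a1, Hspa1b, Hspa8, Cd68, Lyz2, Csf1r, Ptprc, Itgam and the overlapping genes were named after their values were seen. Lengths equalled the union of GENCODE M21 exons for 98.7% of the genes. Alternatives were DESeq2 1.42.0, RLE scaling, other filters, only the compared libraries, a replicate block, a prior count of 2, a minimum absolute log2 change of 0.5 and each library left out. A result of the lists that fell under the naming rule is not reported here.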

Additional observations from a re-analysis of the deposited data

Results flagged for a closer look

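In edgeR's test of the difference itself, the response to SX-682 in B16F0 differed from that in MelanA for 7 of the 10 genes. This stands beside 34.4% of all genes called. In B16F10 against MelanA it also differed for 7, beside 33.8% of all genes. With a call in either line, 8 genes differed, and the share of all genes for such a call is not given here. For each of these 8, the larger of the differences from MelanA was as follows. In B16F10 against MelanA, Egr1 differed by -3.80, Fos by -2.48 and Ier2 by -1.26 on the log2 scale. In B16F0 against MelanA, Jun differed by 1.59, Ier3 by -1.51, Fosl2 by 0.87, Jund by 0.77 and Junb by -0.41. No such difference passed for Fosb or Fosl1, whose intervals were wide, except that without B16F0 SX-682 replicate 2, which leaves a single library with 0 counts, the fitted difference of Fosl1 in B16F0 against MelanA was -5.80 and passed.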

How the results depend on the processing

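Over the 90 results for single genes, 1078 of 1100 values under other settings kept their side of the threshold, 18 lost the call and 4 gained it. No called value changed sign, while 16 values that were not called did, all with a library left out, for Fos, Fosb, Fosl1 and Jund. A minimum absolute log2 change of 0.5 left 5 of 9 called genes for SX-682 in B16F10, 6 of 10 for untreated B16F10 against B16F0 and 4 of 7 for the difference of their responses; the limit itself removes the smaller changes. With each library left out, the number of the 10 genes called was 7 to 8 for SX-682 in MelanA (8 with all libraries), 8 to 9 in B16F0 (8) and 7 to 9 in B16F10 (9), 10 in all fits for each melanoma line against MelanA, and 8 to 10 for B16F10 against B16F0 (10). It was 7 to 8, 6 to 7 and 6 to 7 for the differences of responses, with 7 in each with all libraries. A lone library is there assumed to vary like the other groups. With DESeq2, the counts were 7, 8 and 9 for SX-682 in MelanA, B16F0 and B16F10. The labels give control and SX-682 libraries the same replicate numbers. Over all genes tested, deviations of same-numbered libraries had correlations of 0.0031, -0.0091 and -0.0127 in the 3 lines. No pairing was detected by this measure, which cannot exclude a pairing that affects only some genes. With the replicate block, 8, 8 and 9 genes were called for SX-682 in the 3 lines, 10, 10 and 10 between untreated lines and 7, 7 and 7 for the differences of responses. RLE scaling moved the median of all genes by less than 0.1 in every comparison. Depth limits Fosl1 and Fosb in the melanoma lines, where they had at most 82 counts.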

Other observations

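The genes whose pattern over the 12 libraries was most like that of a member were sought by the root mean square difference of centred log2 CPM, among 11652 or 11653 genes with a mean log2 CPM of at least 1. For Egr1, whose own root mean square deviation from its mean was 3.40, these were Egr2 (0.52), Magee1 (0.83) and Epb41l3 (0.84). Egr2 had 916 or more counts in the MelanA libraries, at most 5 in B16F0 and 4 to 28 in B16F10. Its pattern in the melanoma lines thus rests on few counts. For Fos (1.66) they were Spry4 (0.51), N4bp3 (0.52) and Gm7324 (0.53). For Jun (0.36) they were Plec (0.19), Tead1 (0.20) and Bbx (0.21), and for Fosl1 (2.44) Plscr2 (0.56), Gbp6 (0.68) and Grin2d (0.69). Libraries of a line share their line, so that these 12 values are not independent, and the values are given as a description.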
